A study of Drosophila melanogaster with 3 samples.

Results

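Isolated MCM sites are positions on the 5 major chromosome arms of Drosophila melanogaster where the MCM2-7 complex was found on chromatin with no other such site within 20 kb. The members were selected on measured peak positions. A site belonged to the set when its centre lay more than 20 kb from the centre of the nearest other site in the list made from both immunoprecipitations. This rule found 573 sites among the 5612 on arms 2L, 2R, 3L, 3R and X, which is 10.2% of them, and the whole list held 5726. The other 5039 sites on these arms serve as the comparison throughout.

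MCM2-7 is the ring-shaped replicative helicase. It is loaded onto DNA as paired rings at sites marked by the origin recognition complex, with the help of Cdc6 and Cdt1, and is activated when DNA synthesis begins. Cells load more of it than they use, and the unused complexes are a reserve from which forks can start when others stall. In flies, origins are known to share no fixed DNA sequence and to lie mostly in open chromatin.

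The sites come from chromatin immunoprecipitation and sequencing in S2-DRSC, a male cell line derived from late-stage embryos, grown as asynchronous cultures. The peaks therefore average over the cell cycle. The 3 samples were 2 immunoprecipitations with a mouse monoclonal antibody raised against the yeast MCM complex and directed at the Walker B motif that the MCM subunits share, called replicates 1 and 2, and 1 input DNA sample, which was not analysed here. In the labels the libraries are numbered as separate extractions, and whether separate cultures were used is not said. An interval of the joint list covers overlapping peaks of both replicates and carries a score, the authors' own value with no named unit. At the intervals checked with 1 peak from each replicate, the joint score was the mean of the 2 peak scores. It is then not a separate measurement. Both libraries belong to 1 group and sites of the same library are not replicates, so no test over samples could be run. All differences below are descriptions, given for each replicate where possible. Read depth is unknown. Percentages carry exact (Clopper-Pearson) 95% intervals, which cover counting error only.

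The distances that define the set had a long tail. The median distance from an isolated site to its nearest neighbour was 29.9 kb, with quartiles at 24.2 and 42.9 kb, against a median of 2.36 kb among the other sites. Of the 573, 288 (50.3%) lay within 30 kb of a neighbour, 110 (19.2%) lay more than 50 kb away and 19 more than 100 kb. The 20 kb limit cut through a continuous range. Just inside it were MCM_4064 (3R 17010570 to 17010742) at 20028 bp, the X sites MCM_5106 at 20049 bp and MCM_5570 at 20055 bp, MCM_2216 on 3L at 20075 bp and MCM_1141 on 2R at 20145 bp. Their scores ran from 2.85 to 9.72. Just outside were MCM_2345 on 3L at 19994 bp, MCM_4401 on 3R at 19983 bp, MCM_980 on 2L at 19934 bp, and the neighbours MCM_906 and MCM_907 on 2L, 19883 bp from each other, with scores of 3.07 to 4.97. The 631 sites at 10 to 20 kb are therefore the nearest set for comparison.

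Isolation in the joint list did not always hold in the longer lists of the single replicates. On the major arms replicate 1 had 9351 peaks, of which 3682 matched no joint site, and replicate 2 had 7848, of which 2032 matched none. An isolated site had no such single-replicate peak within 20 kb in 210 of 573 cases (36.6%, 32.7 to 40.7), against 465 of the other 5039 (9.23%). Another 148 sites had exactly 1, 104 had 2 and 111 had 3 or more, up to 8. Single-replicate peaks near isolated sites came mostly from replicate 1: 252 of the 573 sites (44.0%) had none from replicate 1 and 423 (73.8%) had none from replicate 2, against 16.3% and 40.0% of the other sites. The single-replicate peaks around them were short, with median widths of 74 bp over 561 peaks of replicate 1 and 29 bp over 194 peaks of replicate 2. Over all unmatched peaks on the arms the median widths were 71 and 36 bp. The set is thus best read as isolated among sites found in both replicates. Judged within each replicate's own list, 460 peaks of replicate 1 (4.92%) and 525 of replicate 2 (6.69%) lay more than 20 kb from any other. Of the 573 sites, 252 (44.0%) were also isolated in the replicate 1 list, 414 (72.3%) in the replicate 2 list and 206 (36.0%, 32.0 to 40.0) in both. These 206 had a median score of 4.26 and a median width of 178 bp, against 3.99 and 189 bp for the other 367 members.

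Peaks of a single replicate were sparser around the isolated sites than around the others, both inside the 20 kb limit and beyond it. Between 10 and 15 kb from an isolated site there were 0.202 replicate 1 peaks per site per 10 kb of sequence, against 0.502 around the other sites. Beyond the limit the values were 0.279 and 0.426 between 20 and 30 kb, and 0.310 and 0.363 between 40 and 50 kb. For replicate 2 they were 0.0733 and 0.440 at 10 to 15 kb. At 20 to 30 kb they were 0.120 and 0.342, and at 40 to 50 kb 0.158 and 0.247. Both replicates had more of these peaks in the first 1 kb around an isolated site than at 5 to 20 kb, with 0.620 per 10 kb in replicate 1 and 0.192 in replicate 2. Around the other sites the first 1 kb held more still, 0.953 and 0.543. Peaks without a partner thus also lay close beside sites that had one.

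**Figure D1:**
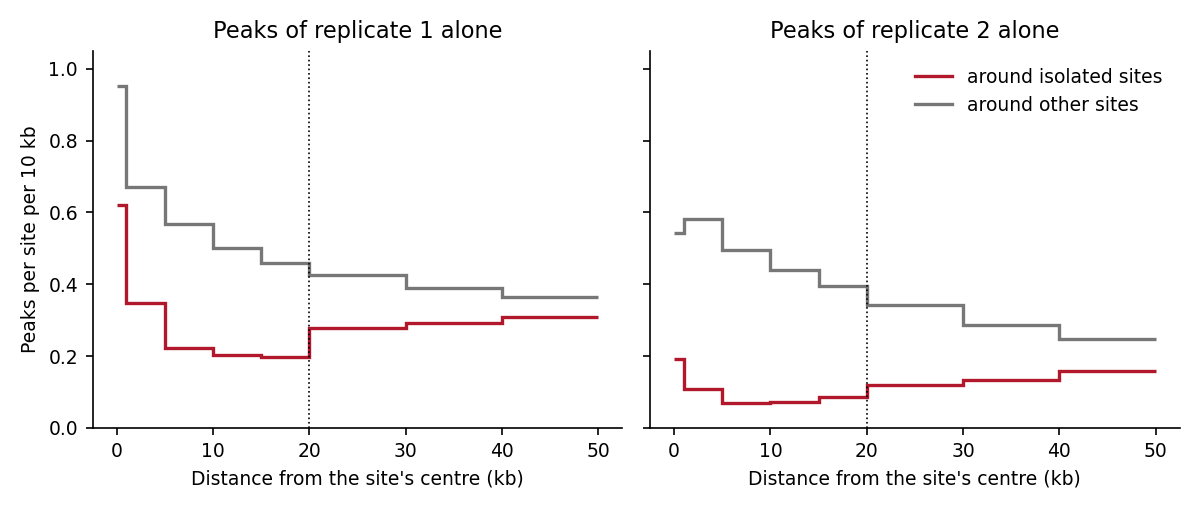
Number of peaks called in only 1 replicate, per site and per 10 kb of sequence on both sides, against distance from the site's centre in kb, for 573 isolated (red) and 5039 other (grey) sites; the dotted line marks 20 kb. Peaks of replicate 1 alone (left) and of replicate 2 alone (right) were less dense around isolated sites in every distance class shown, by more within 20 kb than at 40 to 50 kb.

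Isolated sites were spread over all 5 arms in similar proportion. They made up 11.0% of the sites on 3L (119 of 1080), 10.8% on 2L (110 of 1016), 10.4% on X (109 of 1048), 9.80% on 3R (135 of 1378) and 9.17% on 2R (100 of 1090). The exact intervals of all 5 shares overlapped, the lowest running from 7.53 to 11.0% and the highest from 9.21 to 13.0%. Per Mb, the arms carried between 4.73 (2R) and 4.86 (X) of them. In the single-replicate lists the isolated share averaged 6.72% ± 1.63 (SD, n = 2) on 2L, 6.34% ± 1.10 on 3L, 5.56% ± 1.62 on 3R, 5.37% ± 1.08 on X and 5.20% ± 0.839 on 2R. These SDs include the overall gap between the lists, and 2L and 3L had the highest shares in both. If each stretch of arm is given to the site closest to it, the isolated sites held 36.4 of 118.9 Mb (30.7%), from 28.1% of 2R to 33.7% of X. A share well above 10.2% follows from the rule that chose them.

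Many isolated sites followed each other along an arm. A gap of more than 20 kb counts for both sites beside it, so such stretches follow in part from the rule. They formed 369 stretches uninterrupted by another kind of site, 236 of a single site and 133 of at least 2, and the latter held 337 members (58.8%). The longest held 8 sites over 753 kb of X, from 13890011 to 14643400. It was described in detail after its values were seen. Its first site, MCM_5359, scored 16.2 in replicate 1 and 12.2 in replicate 2 and lay 102 kb from the site on its other side. MCM_5360 followed 215 kb farther on with scores of 3.41 and 3.12, and the remaining 6 sites lay between 14474491 and 14643400. Of these, MCM_5365 scored 6.99 and 10.1, and MCM_5363, the lowest of the 8, scored 3.0 and 1.90. High and low scores thus occurred side by side in the same sparse region. A stretch of 5 sites began 2R at its centromere end, from 75569 to 559392. There MCM_1021, MCM_1023 and MCM_1025 scored 6.73, 8.35 and 9.52 in replicate 1 and 5.32, 4.82 and 6.81 in replicate 2, while MCM_1022 and MCM_1024 lay between 2.79 and 3.58 in both.

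Near the centromere a larger share of the sites was isolated. This is a share of sites and not a number per Mb. By the distance rule it tends to be higher wherever sites are sparse. In the 1 Mb nearest the centromere end, 22 of 96 sites were isolated (22.9%, 15.0 to 32.6), against 11.8% (7.38 to 17.7) at 1 to 2 Mb, 11.3% at 2 to 5 Mb, 9.43% at 5 to 10 Mb and 9.81% (8.84 to 10.9) farther out. The first 1 Mb also stood highest in each replicate list. Its share was 14.0% (9.59 to 19.5) in replicate 1 and 18.5% (12.9 to 25.4) in replicate 2, compared with 4.52% and 6.05% beyond 10 Mb. In the first 2 Mb 9 of 36 sites on 2R (25%), 6 of 27 on 3L (22.2%), 9 of 56 on 2L (16.1%), 7 of 51 on X (13.7%) and 11 of 95 on 3R (11.6%) were isolated. All 5 exceeded the 10.2% of the arms as a whole, but each rests on at most 11 isolated sites. These 42 sites were 7.33% of the isolated set, and 223 of the other sites (4.43%) lay in the same windows. How uniquely reads can be placed in this repeat-rich sequence was not measured, and its part in the result was not tested.

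**Figure D2:**
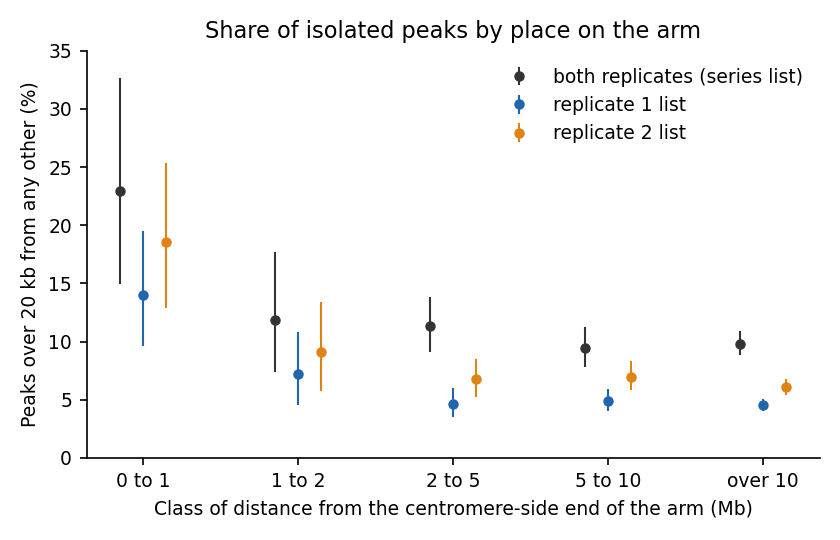
Percentage of peaks more than 20 kb from any other, by class of distance from the centromere-side end of the arm in Mb, for the joint list (black), replicate 1 (blue) and replicate 2 (orange). Points are shares over the 5 major arms and bars are exact 95% intervals. The first 1 Mb stood highest in all 3 lists, at 22.9%, 14.0% and 18.5%.

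Isolated sites scored somewhat higher than the others. Their median score was 4.11 (quartiles 3.19 and 5.18, range 1.69 to 75.1), against 3.77 (3.07 and 4.68) for the other sites. Ranked among all sites of the arms, the median isolated site stood at percentile 59.9 and the median other site at 48.9, a difference of 11.0 points. Ranked by their own scores, the replicates gave similar values, 11.3 points in replicate 1 (medians 4.11 and 3.75) and 10.6 in replicate 2 (4.14 and 3.77). The joint score draws on these same scores, so its 11.0 points are not a separate reading. The quartile ranges overlapped, and the difference was largest in the upper part. The highest 10% of all scores held 99 isolated sites (17.3%, 14.3 to 20.6) and 9.17% of the others. The lowest 10% held 7.85% (5.79 to 10.4) and 10.2% (9.42 to 11.1). A score of at least 10 was found at 15 isolated sites (2.62%) and 37 others (0.734%).

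The median score percentile was higher in each class of distance than in the one before, with the widest step at 50 kb. From the closest to the farthest class of nearest-neighbour distance, median percentiles were 44.7 up to 1 kb, 46.5 at 1 to 2 kb, 49.9 at 2 to 5 kb, 53.1 at 5 to 10 kb, 54.6 at 10 to 20 kb, 58.2 at 20 to 50 kb and 68.6 beyond 50 kb. The 2 classes that make up the isolated set thus continued an order already present among the others. In replicate 1, median scores went from 3.62 in the closest class to 3.96 at 10 to 20 kb, 4.0 at 20 to 50 kb and 4.59 beyond 50 kb. In replicate 2 they went from 3.66 to 3.90, 4.08 and 4.52. On each arm the isolated sites had the higher median percentile, from 53.6 against 49.0 on 2R to 59.5 against 45.1 on X. The gap was narrowest on 2R and widest on X, and differences among arms were not tested.

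**Figure D3:**
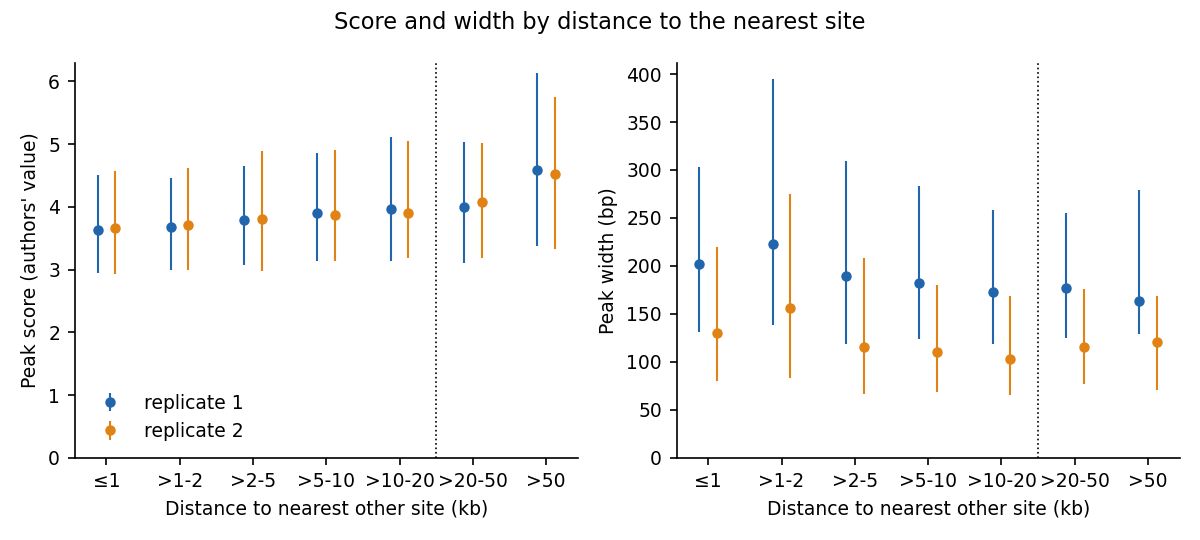
Peak score (left, the authors' value) and peak width in bp (right) of the same sites in replicate 1 (blue) and replicate 2 (orange), by distance to the nearest other site in kb. Points are medians and bars run from the lower to the upper quartile; sites to the right of the dotted line are isolated. Median scores went from 3.62 and 3.66 in the closest class to 4.59 and 4.52 in the farthest, while quartiles overlapped throughout.

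In the joint list isolated sites were also narrower, with fewer broad intervals among them, but not in the replicate 2 list taken alone. Median width was 183 bp (quartiles 134 and 284) against 208 bp (142 and 335), a ratio of 0.880. Intervals of at least 500 bp made up 6.11% (35 sites, 4.29 to 8.39) of the isolated and 11.4% (10.5 to 12.3) of the other sites. For at least 600 bp the shares were 3.66% (21 sites) and 6.95%, and for at least 1000 bp 0.349% (2 sites) and 1.91%. At the narrow end the shares were close, with 10.8% and 10.1% at or below 100 bp. Libraries were cut to fragments of 150 to 200 bp, per the labels, and 56.0% of isolated against 47.6% of other intervals were no wider than 200 bp. The difference was smaller within each replicate and differed between them. Median peak widths at these sites were 174 and 192 bp in replicate 1 and 116 and 120 bp in replicate 2, ratios of 0.906 and 0.967. With isolation also judged within 1 list, the ratio was 0.904 in replicate 1 and reversed to 1.02 in replicate 2, with medians of 99 and 97 bp. Sites 10 to 20 kb apart had a median width of 184 bp, the same as the isolated sites to within 1 bp. Peaks that overlap are joined into 1 interval and then no longer count as neighbours, so width is not fully independent of the distance rule.

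Each difference was also present within classes of the other measure. Within each quartile of width the isolated sites had the higher median percentile, with 59.0 against 53.6 in the narrowest, 62.9 against 50.6, 59.7 against 50.2, and 54.2 against 44.5 in the widest. Within each quartile of score they were the narrower, with medians of 181 against 205 bp in the lowest, 185 against 228, 199 against 227, and 176 against 183 bp in the highest. The gap in width was thus smallest among the strongest sites.

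The 10 isolated sites with the highest scores were 105 to 288 bp wide and lay on X (3), 3R (3), 2L (3) and 3L (1). The top value, 75.1 at MCM_5713 (X 21834808 to 21835095), rested mostly on replicate 2 (140.8, against 9.34 in replicate 1). This site lay 580 kb from the centromere end of X, in the sequence where read placement was not measured. MCM_5511 (X 17349987 to 17350091) scored 13.9 and 17.0 in replicates 1 and 2, with 97.1% of its joined extent covered by both peaks. On 2L, MCM_254 (4726147 to 4726291) scored 13.2 and 14.6. It lay 65.1 kb from any joint site with no single-replicate peak within 20 kb. MCM_3018 (3L 18453547 to 18453761) scored 11.7 and 14.5 at 57.5 kb from its neighbour, again with none.

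The remaining strong sites were similar in both replicates with a single exception. MCM_1012 (2L 22690958 to 22691112) scored 11.2 and 14.7, 312 kb from the centromere end, and had 5 single-replicate peaks within 20 kb. MCM_3282 (3R 1264597 to 1264780) scored 14.8 and 10.8, and MCM_707 (2L 14972990 to 14973101) scored 10.5 and 14.6. MCM_3748 (3R 11263882 to 11264012) scored 12.9 and 11.7. The exception, MCM_4143 (3R 18619782 to 18619986), scored 16.9 in replicate 1 and 6.19 in replicate 2. Of the 10, 8 had replicate scores within 1.5 times of each other and 6 were isolated in both replicate lists as well.

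The most remote site was MCM_3204 (3L 24021374 to 24021621), 448 kb from the nearest joint site and 509 kb from the centromere end of its arm. It scored 4.94 and 5.06 and was 215 and 223 bp wide, and 2 peaks of replicate 2 alone lay within 20 kb. Next came MCM_5360 on X, described above, and MCM_1012 on 2L at 184 kb. MCM_5250 (X 12097745 to 12098025) at 175 kb scored only 2.99 and 2.39, whereas MCM_816 (2L 17963170 to 17963419), also at 175 kb, scored 7.28 and 5.89. The next were MCM_5718 (X 22054340 to 22054544) at 161 kb, MCM_1934 (2R 17771564 to 17772177) at 155 kb, MCM_4814 (X 2763609 to 2763726) at 125 kb, MCM_706 (2L 14851796 to 14851949) at 121 kb and MCM_739 (2L 16049670 to 16049843) at 117 kb. The series scores of the 10 spanned 2.69 to 13.0 with a median of 4.49, so remote sites were found at low and high scores alike. In 5 of the 10 no single-replicate peak lay within 20 kb.

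The widest and the narrowest sites included pairs of replicate peaks with similar and with unlike widths. The widest isolated interval, MCM_4073 (3R 17122179 to 17123376), was 1198 bp long and joined a replicate 1 peak of 1132 bp to 2 peaks of replicate 2. MCM_990 (2L 21828068 to 21829191) was broad in both, with 1124 and 1096 bp and scores of 4.08 and 3.44. MCM_3781 (3R 11924879 to 11925746) covered 868 bp with 3 peaks in replicate 2. MCM_4340 (3R 22937492 to 22938325) was 834 bp in replicate 1 and 200 bp in replicate 2, and MCM_1022 on 2R was 783 and 646 bp. All 5 scored between 2.82 and 4.16.

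The narrowest was MCM_4923 (X 5709911 to 5709921) with 11 bp in replicate 1 and 3 bp in replicate 2. It was followed by MCM_4147 on 3R with 18 and 6 bp, MCM_4253 on 3R with 34 and 10 bp, MCM_1990 on 2R with 39 and 32 bp and MCM_1746 on 2R with 41 and 8 bp. Such intervals are far below the fragment size, so their widths describe the call and not the extent of binding. MCM_4253 still scored 6.95 and 10.2. A peak of 1 bp stood behind 1 isolated site in replicate 1 and behind 6 in replicate 2.

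Position and score were about as close between the replicates at isolated sites as elsewhere. All members were on the joint list, and so in both replicates, by construction. Exactly 1 peak from each replicate stood behind 559 of the 573 isolated sites (97.6%), against 95.8% over all sites of the arms, and the remaining 14 had several peaks in replicate 2. Over the 559, the centres of both peaks were a median of 19 bp apart (quartiles 8 and 38), against 22 bp at the other sites. Sites 10 to 20 kb from a neighbour also had a median of 19 bp. The bases shared were a median of 58.2% of the joined extent at isolated sites, against 57.6% at the others. The replicate 1 peak was the wider at 80.7% of isolated and 79.3% of other sites.

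Scores were within 1.5 times of each other at 511 of the 559 isolated sites (91.4%, 88.8 to 93.6), against 92.7% over all 5377 sites with 1 peak from each. Spearman's rho between the replicate scores was 0.813 over 559 isolated and 0.783 over 4818 other sites, as a description across sites of the same 2 libraries. Pearson's r of the log2 scores had the opposite order (0.796 and 0.811), as had Spearman's rho of the widths (0.594 and 0.625). Only on X was r lower at isolated sites (0.746 against 0.787). It was higher on 2R (0.844 against 0.802) and 2L (0.825 against 0.815), and nearly level on 3L (0.834 against 0.832) and 3R (0.821 against 0.819). MCM_5713 lies on X, and its part in this order was not tested. By arm the rho of scores ran from 0.781 (3R) to 0.851 (2R) among isolated sites. The median absolute log2 ratio of the scores was 0.25 (quartiles 0.12 and 0.38) at isolated sites and 0.21 (0.10 and 0.36) at the others. Scores thus differed slightly more between replicates at isolated sites. At sites 10 to 20 kb from a neighbour the median was 0.22. Against all other sites, the isolated value was the larger in every quartile of score, by 0.01 to 0.05, but not on every arm. Isolated sites had the larger value on 2L (0.276 against 0.201), 3L (0.243 against 0.217) and 3R (0.261 against 0.195). On 2R the values were nearly level (0.212 against 0.204), and on X the order was reversed (0.228 against 0.249). Replicate 2 had the higher score at 47.8% (43.6 to 52.0) of isolated and 54.5% (53.0 to 55.9) of other sites, with median log2 ratios of replicate 2 over replicate 1 of -0.02 and 0.04.

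**Figure D4:**
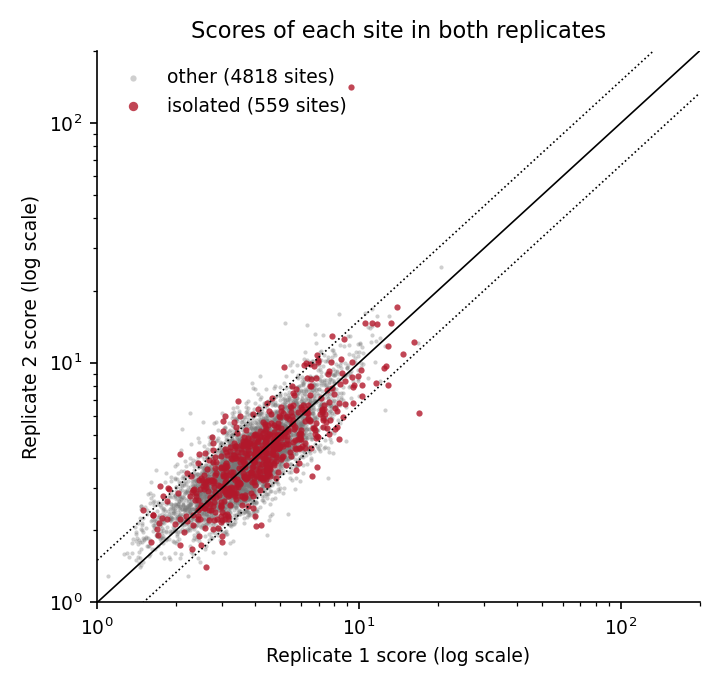
Score of each site in replicate 1 (horizontal) and replicate 2 (vertical), both on log scales, for 559 isolated sites (red) and 4818 other sites (grey) with 1 peak from each replicate. The solid line marks equal scores and the dotted lines a factor of 1.5 either way. Of the isolated sites 91.4% lie between the dotted lines, and MCM_5713 stands alone at 9.34 and 140.8.

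Only 4 isolated sites (0.716%) differed by more than a factor of 2, against 16 others (0.332%). Beside MCM_5713 and MCM_4143 these were MCM_3586 (3R 7645014 to 7645376), with 2.07 and 4.17 in replicates 1 and 2, and MCM_5106 (X 9003464 to 9003669), with 4.22 and 2.10. MCM_3025 (3L 18723879 to 18723974) followed with 3.46 and 6.89. In all 5 the peaks also differed in width by a factor of at least 2.88, and in 4 of them the wider peak had the higher score. The closest scores were those of MCM_1045 (2R 1670226 to 1670418), at 2.43 in both. After it came MCM_2441 on 3L (4.14 and 4.15), MCM_178 on 2L (3.30 and 3.31), MCM_1013 on 2L (2.33 and 2.32) and MCM_2090 on 2R (5.55 and 5.53). MCM_178 had these scores with peaks of 66 and 6 bp, so similar scores did not need similar widths.

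Because the joint list holds only peaks seen in both replicates, recovery was examined by taking isolation from a single replicate and looking for the peak in the other, which that rule had not used. Of the 460 peaks isolated in replicate 1, 253 (55.0%, 50.3 to 59.6) overlapped a replicate 2 peak, against 60.9% (59.9 to 61.9) of the other 8891. Of the 525 isolated in replicate 2, 415 (79.0%, 75.3 to 82.5) overlapped a replicate 1 peak, against 73.8% (72.7 to 74.8) of the other 7323. The difference thus had opposite signs, -5.92 points from replicate 1 and 5.29 points from replicate 2, and gave no common direction at 20 kb. For peaks more than 50 kb from any other, both were negative, at -10.1 and -5.10 points, with 41 of 81 and 67 of 97 recovered. Outside the 2 Mb nearest the centromere end, 32 of 58 (55.2%) and 58 of 78 (74.4%) of these were recovered. Peaks there within 20 kb of another were recovered at 61.2% and 73.9%. The shared direction at 50 kb was thus not seen in replicate 2 away from the centromeres. The size of the 20 kb difference also depended on what counted as recovered. It was -1.42 and 4.25 points when 50% of the peak had to overlap, and -10.1 and 2.60 points for centres within 500 bp. The centre measure takes any peak of the other replicate in reach. A peak with close neighbours can thus also match a neighbour's partner. Isolated peaks of replicate 1 were more often among its narrowest quartile (32.8%, against 25.0% of the others), while those of replicate 2 were less often (21.9%, against 25.5%).

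Within quartiles of width the isolated peaks of replicate 1 were recovered less often than the others in the narrowest and the widest and more often in between, with 15.9% against 19.2%, 51.5% against 49.4%, 83.6% against 82.0%, and 87.2% against 92.8% from narrow to wide. In replicate 2 the isolated peaks were level in the narrowest quartile (41.7% against 41.5%) and higher in the others (76.6% against 69.3%, 95.9% against 91.1%, 97.9% against 93.8%). Averaged over the quartiles the differences were -1.31 and 4.09 points. Recovery varied more with score than with isolation in both lists. From the lowest to the highest quartile of score, recovery of isolated peaks went from 29.3 to 67.9% in replicate 1 and from 60.4 to 85.4% in replicate 2. Weak isolated peaks of replicate 1 were recovered less often than weak others. In its lowest quartile 29.3% (21.4 to 38.1) compared with 44.8% (42.7 to 46.9), then 50.6% with 60.1%, 70.4% with 71.1% and 67.9% with 67.7%. In replicate 2 the shares were 60.4% and 53.5%, 78.7% and 80.5%, 83.9% and 82.5%, and 85.4% and 79.0%.

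**Figure D5:**
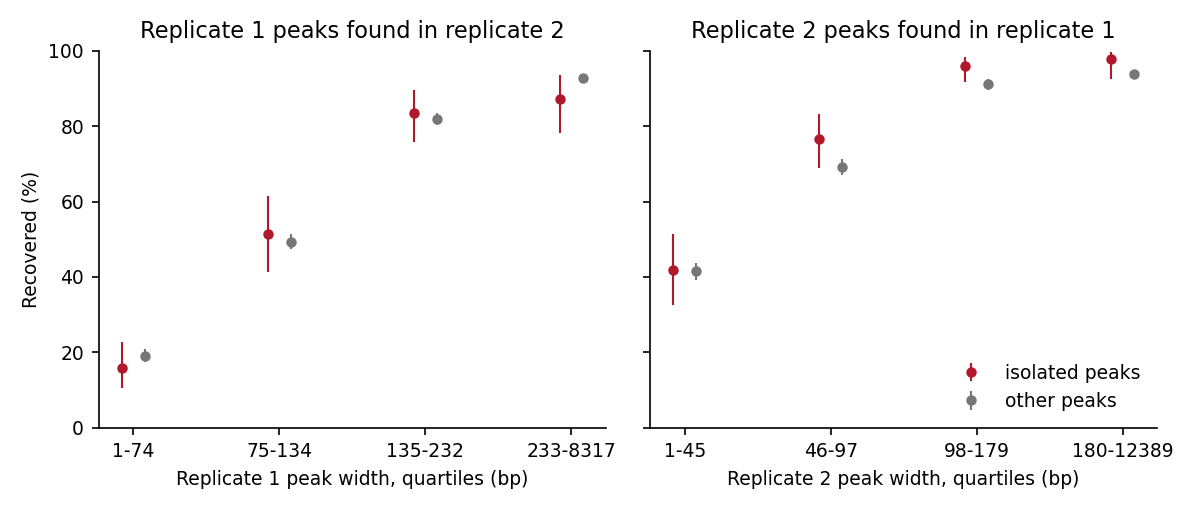
Percentage of peaks overlapping a peak of the other replicate by at least 1 bp, by quartile of peak width in bp, for peaks more than 20 kb from any other in their own list (red) and for the other peaks (grey); bars are exact 95% intervals. Recovery varied far more with width than with isolation, from 15.9% to 87.2% among isolated peaks of replicate 1 and from 41.7% to 97.9% in replicate 2.

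Recovery of isolated peaks was lowest next to the centromeres. In the 2 Mb nearest the centromere end, 17 of 50 isolated replicate 1 peaks (34.0%, 21.2 to 48.8) and 28 of 52 isolated replicate 2 peaks (53.8%, 39.5 to 67.8) were found again. Elsewhere the shares were 57.6% (52.6 to 62.4) and 81.8% (78.0 to 85.2). The other peaks showed smaller gaps, 55.5% against 61.2% in replicate 1 and 70.7% against 73.9% in replicate 2. Isolated peaks near the centromere also had lower median scores (3.22 against 3.89 elsewhere in replicate 1, and 3.83 against 4.06 in replicate 2). They were narrower, with medians of 102 and 61 bp against 125 and 100 bp elsewhere, and neither score nor width was separated from place here. By arm, recovery of isolated replicate 2 peaks was 67.6% (57.7 to 76.6) on X and between 78.4% (3L) and 84.1% (3R) on the autosome arms, and the other peaks were also lowest on X, at 65.4%. For isolated replicate 1 peaks the arms ran from 51.8% (X) to 60.2% (3R) with overlapping intervals.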

How the data were processed

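S2-DRSC libraries of MCM-bound chromatin and of input DNA were sequenced from a single end after size selection, per the labels' protocols. The authors deposited a peak list per immunoprecipitation and 1 joint list. Their headers name FlyBase release 5.1 and their caller column names PeakSeq. The score was deposited with no named unit. The aligner and the calling settings were not given in the sources used here.

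Distances ran between peak centres on 1 chromosome. Arm ends were the first and last peak positions over the 3 lists, and the centromere was taken at the right end of 2L, 3L and X and the left end of 2R and 3R. Peaks overlapped when they shared at least 1 bp. The members, named sites and measures were chosen with earlier results of these data known. Named sites were the 10 highest-scoring and 10 most remote, and the 5 widest, narrowest, most and least different between replicates, and just inside and outside 20 kb. No test was run; other limits, arms, replicates and width or score filters were tried as alternatives. The gene annotation in hand is of Release 6, another build, so no gene or sequence was used. Code was tested on simulated data. Tools were pandas 2.3.3, NumPy 2.4.6, matplotlib 3.10.9 and SciPy 1.17.1 under Python 3.11.15.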

Additional observations from a re-analysis of the deposited data

Results flagged for a closer look

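Outside the major arms, which the comparisons above do not use, the joint list held 114 intervals on chromosome 4, the heterochromatin scaffolds and the unplaced sequence U. Of these, 53 (46.5%) lay more than 20 kb from the nearest other interval of the same sequence, and input DNA was not used for comparison. They included 16 of 18 on U, 10 of 14 on 3LHet, 9 of 16 on 2RHet and 9 of 46 on chromosome 4. On U and the scaffolds these are distances in assembly coordinates. Whether they are distances in the genome was not examined, so these shares are not read as isolation. The 53 intervals had a median score of 3.85 and a median width of 253 bp.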

How the results depend on the processing

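No paired analysis was possible because no test was run and only 1 group has peak lists. Of 61 alternatives to 8 results, 43 were counted as leaving the value in place, 16 as moving it and 2 as reversing it. The bound for a move differed among the results, so the 43 do not measure stability. They include changes of the replicate 1 recovery difference from -5.92 to -1.42 and to -10.1 points. The number of isolated sites was 1204 at 10 kb, 110 at 50 kb and 206 where both replicate lists had to show isolation too. The score difference was 18.9 percentile points at 50 kb and 15.4 for those 206, and positive under every alternative run. The width ratio reversed to 1.02 in the replicate 2 list alone and was 0.904 in the replicate 1 list alone. The difference in median absolute log2 score ratio (0.04) was 0.0248 at 10 kb, 0.0491 at 50 kb and 0.0466 without X. Recovery of isolated replicate 1 peaks differed by -0.505 points in the higher-scoring 50% of the list, -3.64 without the 2 Mb nearest the centromere and -3.03 for peaks of at least 50 bp. That of replicate 2 peaks reversed to -5.10 points at 50 kb and was 7.91 at 20 kb without those 2 Mb. With both limits, 74.4% of isolated replicate 2 peaks were recovered, against 73.9% of peaks within 20 kb of another. Isolated sites with no single-replicate peak nearby were 52.2% within 10 kb, 51.7% counting only peaks of at least 50 bp, and 44.0 to 73.8% counting 1 replicate. The share near the centromere was 3.84% in 1 Mb, 12.2% in 3 Mb and 15.5% for sites over 50 kb apart (other sites 1.47, 8.10 and 4.51%). Causes were not tested. Isolation in both lists, intervals with 1 peak from each replicate, removal of the highest-scoring site, peaks of at least 50 bp in recovery and averaging over width quartiles were chosen after seeing the data. Depth is unknown, so a stretch without a site may hold MCM below detection.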
